A study of Mus musculus with 24 samples.

Results

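The genes described here are the 200 whose expression in mouse thoracic aorta was highest in Klotho-/- mice fed minimal magnesium relative to the other genotype and diet groups. Counts of each of 41012 genes were scaled to the total of the library (CPM, the usual scaled count), and the median of log2(CPM + 1) was taken over the 6 mice of each group. The score of a gene was the median in Klotho-/- mice on minimal magnesium less the largest of the other 3 medians. The members were chosen by this score: they are the 200 genes of highest score, out of 1989 genes with a score of at least 0.5. Scores ran from 1.84 to 6.77 with a median of 2.17, so the last member was 1.84 log2 units above the next highest group, and the first gene outside stood at 1.8356 against 1.8401 for the last inside. The scores are therefore a description and not a finding.

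Klotho is a membrane protein of kidney and other tissues that serves as a coreceptor for the phosphate-lowering hormone FGF23. Mice without it retain phosphate, overproduce active vitamin D, age early and deposit mineral in the wall of their arteries. Magnesium is known to slow the ripening of calcium phosphate crystals, and the series examined aorta from mice of both genotypes that had received little or much of it.

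RNA was measured in 24 aortas, 1 per mouse, from 8-week-old animals of strain C57/BL6. The 4 groups of 6 were wild-type mice on minimal magnesium, which are the study's control, wild-type mice on high magnesium, Klotho-/- mice on minimal magnesium and Klotho-/- mice on high magnesium. Minimal and high stand for diets of 0.05% and 0.48% magnesium by weight that were given from birth. The labels do not say how the knockout allele was made or whether mice of a group were littermates. The labels number the mice, and mouse numbers are used below to name libraries. The groups hold unequal shares of low and high numbers: 1 of the 6 Klotho-/- mice on minimal magnesium has a number from 1 to 18 and 5 have a number from 20 to 40, against 4 and 2 on high magnesium, 3 and 3 among control mice and 2 and 4 among wild-type mice on high magnesium. The labels do not say what a mouse number stands for.

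Library totals ran from 9947455 to 18926802 counts. The files name genes by identifiers of the C57BL/6NJ strain, and 0 of them occurred in the tables of gene names, promoters or miRNAs used here, so Klotho itself, the markers of smooth muscle, endothelium and other aortic cells, and the roles of the members were not analysed here. In bulk tissue, fewer cells of a type and less RNA per cell cannot be told apart.

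A pair of libraries lay apart from their labels on genes that are not members. Among non-members called between the genotypes on high magnesium (edgeR, adjusted p below 0.05), 2714 were higher and 2811 lower in Klotho-/- mice. The mean log2(CPM + 1) of the former less that of the latter lay between -0.09 and 0.47 in the Klotho-/- mice on high magnesium and between -1.72 and -1.37 in the wild-type mice on that diet, which the choice of genes fixes. On minimal magnesium, which did not enter that choice, 5 of 6 mice labelled Klotho-/- lay between -0.9 and -0.54 and 5 of 6 mice labelled wild type between -1.55 and -1.05. Mouse 20, labelled Klotho-/-, lay at -1.59, below every control mouse, and mouse 4, labelled wild type, lay at -0.41, above every Klotho-/- mouse on minimal magnesium. Labels were kept as deposited, and the counts of calls, the overlap between groups, the spread, the levels and the correlations of the branches are also given without these 2 libraries, except for counts from DESeq2, which was fitted to all 24.

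The share of the library taken by the members is described next; that it is larger in Klotho-/- mice on minimal magnesium follows from the rule. Their counts made up 0.476% to 1.54% of the library in those 6 mice, with a median of 1.03%. The share was 0.0856% to 1.31% in control mice (median 0.153%), 0.092% to 0.172% in wild-type mice on high magnesium (median 0.124%) and 0.0706% to 0.382% in Klotho-/- mice on high magnesium (median 0.116%). The groups overlapped because 2 control mice, 4 and 38, lay within the range of the Klotho-/- mice on minimal magnesium. No member had every Klotho-/- mouse on minimal magnesium above all 18 other mice (0 of 200). Of all genes tested, 0.0478% had every such mouse above all 18 others. Leaving out mice 4 and 20, 85 of the 200 were free of overlap, where 3.49% of all genes were. The rule chose the members for high values in this group, so nothing is read from these counts. Without mouse 20 alone, 29 were, beside 1.36% of all genes, and without mouse 4 alone 0 were, beside 0.0836%.

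**Figure D1:**
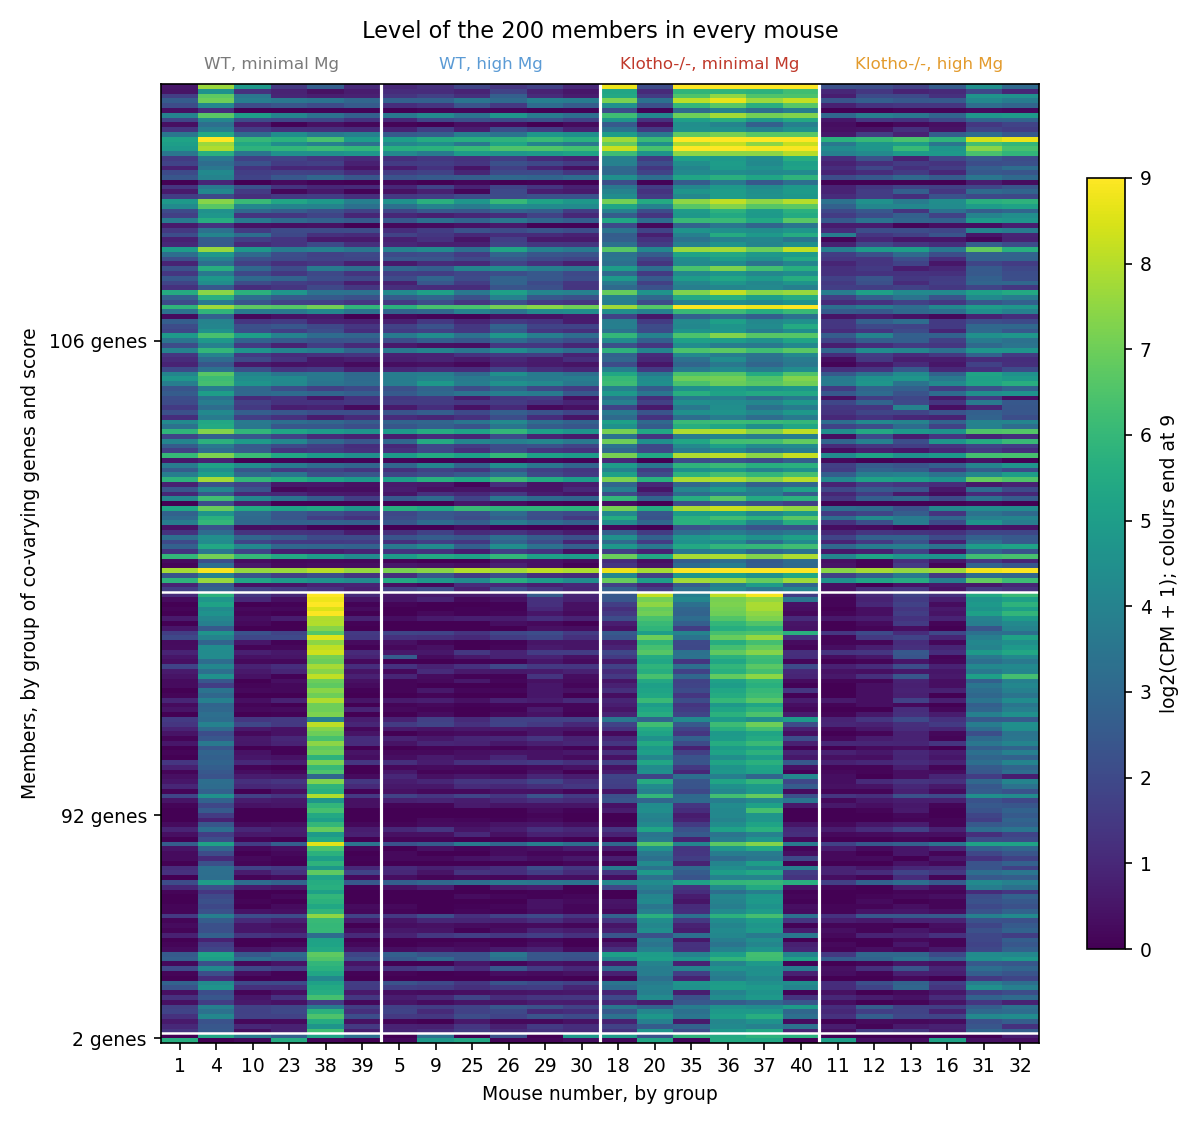
Colour gives log2(CPM + 1) of each of the 200 members (vertical axis, ordered by group of co-varying genes and by score) in each of 24 mice (horizontal axis, by genotype and diet); colours end at 9. The 106 genes at the top are bright in mice 18, 35, 36, 37 and 40 and in mouse 4, and the 92 genes below them in mice 20, 36, 37 and 38.

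Within groups the members varied in 2 ways. A tree built from the correlation of log2(CPM + 1) after removal of the group means placed 106 members in one branch and 92 in another, with 2 members left alone. The median correlation between members was 0.811 within the larger branch and 0.962 within the second, and 0.089 between a member of one and a member of the other, each over 24 mice that all members share. Over the 22 mice without mice 4 and 20 the medians within these branches were 0.557 and 0.966. When mice 4 and 20 were left out the branches held 102 and 95 members, and 101 and 91 of these were in the corresponding branch of the full set. Since the branches were formed on these values, counts by branch are descriptions.

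The 106-gene branch was high in 5 of the 6 Klotho-/- mice on minimal magnesium. Its median log2(CPM + 1) was 3.97 in mouse 18, 4.70 in mouse 35, 5.08 in mouse 36, 4.54 in mouse 37 and 5.22 in mouse 40, and 2.03 in mouse 20. In control mice it was 4.28 in mouse 4 and 1.43 to 2.38 in the other 5. In wild-type mice on high magnesium it lay between 1.58 and 2.38. In Klotho-/- mice on high magnesium it was 2.97 in mouse 31, 2.83 in mouse 32 and 1.47 to 2.09 in the other 4. Mouse 20 was thus inside the range of the wild-type mice, and was the lowest of its 6 in all 106 genes. Mouse 4 was the highest of the 6 control mice in all 106, the highest of the 18 mice outside the Klotho-/- minimal group in 99, and above that group's median in 30. In CPM the median gene of this branch stood at 3.08 to 36.4 in the Klotho-/- mice on minimal magnesium (median 23.7), and all 85 members that were free of overlap without mice 4 and 20 belong to it.

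The 92-gene branch was high in 3 of the 6 Klotho-/- mice on minimal magnesium and highest in a control mouse. Its median log2(CPM + 1) was 4.47 in mouse 20, 4.85 in mouse 36 and 5.27 in mouse 37, and 2.07 in mouse 35, 1.06 in mouse 18 and 0.84 in mouse 40. In control mice it was 6.33 in mouse 38 and 2.90 in mouse 4, and 0.36 to 0.44 in the other 4. In wild-type mice on high magnesium it lay between 0.37 and 0.67. In Klotho-/- mice on high magnesium it was 2.89 in mouse 31, 3.28 in mouse 32 and 0.23 to 0.88 in the other 4. Mouse 38, labelled wild type and on the wild-type side of the genotype measure above, exceeded every Klotho-/- mouse on minimal magnesium in 85 of these 92 genes and was the highest of the 18 other mice in 90. Mouse 36 was among the 3 highest of its group in 92, mouse 37 in 91 and mouse 20 in 77, against 10 for mouse 40, 5 for mouse 35 and 1 for mouse 18. The group median of this branch therefore fell between 3 high and 3 low mice. Without mice 4, 20 and 38, 6 of its 92 genes were free of overlap, beside 4.01% of all genes tested. Without mice 31 and 32 as well, 28 were, together with 97 of the 106-gene branch, where 7.69% of all genes tested were.

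**Figure D2:**
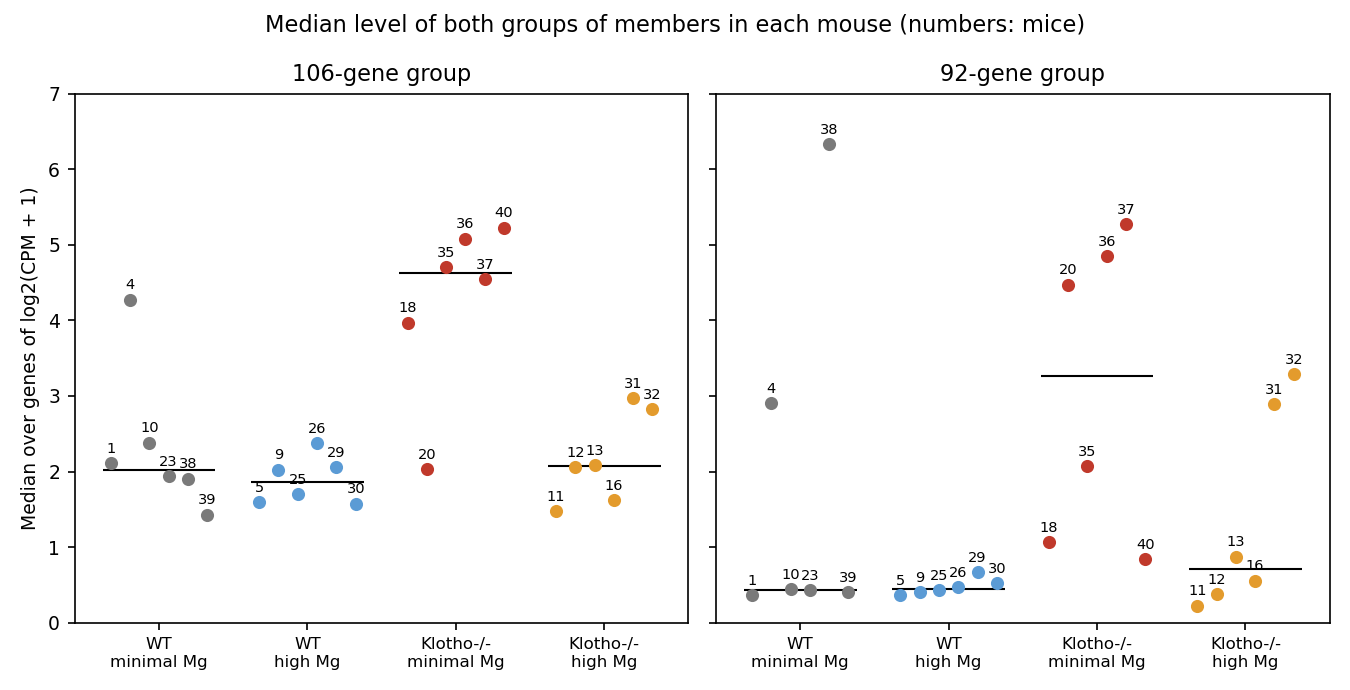
Each point is 1 mouse, and the vertical axis is the median of log2(CPM + 1) over the 106 genes (left) or the 92 genes (right), with the group median as a line. On the left 5 Klotho-/- mice on minimal magnesium lie between 3.97 and 5.22 with mouse 4 at 4.28; on the right mouse 38 lies at 6.33, above all of them.

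The spread between mice followed the same split. The median SD of log2(CPM + 1) among Klotho-/- mice on minimal magnesium was 1.13 in the 106-gene branch and 2.11 in the 92-gene branch, and 0.263 over all genes tested. Among control mice it was 1.01 and 2.31, and 0.361 over all genes. Among wild-type mice on high magnesium, which hold neither mouse 4 nor mouse 38, it was 0.428 and 0.235, and 0.253 over all genes. Among Klotho-/- mice on high magnesium it was 0.736 and 1.22, and 0.364 over all genes. Without mice 4 and 20 the SD among Klotho-/- mice on minimal magnesium was 0.539 in the 106-gene branch and 2.17 in the 92-gene branch. Among control mice it was 0.477 and 2.54. Over all genes tested it was then 0.222 among these Klotho-/- mice and 0.3 among control mice, below both branches. The spread of the 106-gene branch in these groups thus rested largely on these 2 mice, and that of the 92-gene branch did not. At levels well below 1 CPM, as in the 92-gene branch on high magnesium in wild-type mice, log2(CPM + 1) is close to its floor so a small SD there does not show little variation.

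Levels outside the Klotho-/- minimal group were low, and lower in the 92-gene branch. The median member of the 106-gene branch had group medians of 3.24 CPM in control mice, 2.79 CPM in wild-type mice on high magnesium and 3.28 CPM in Klotho-/- mice on high magnesium, against 23 CPM in Klotho-/- mice on minimal magnesium. In the 92-gene branch the corresponding values were 0.446, 0.368, 0.724 and 14.4 CPM. Without mice 4 and 20 the median member had 25.7 CPM in Klotho-/- mice on minimal magnesium in the 106-gene branch, but 3.20 CPM in the 92-gene branch, against 2.96 and 0.38 CPM in control mice. All 3 other medians were below 1 CPM in 12 of the 106 and in 51 of the 92. Per length, the median level in Klotho-/- mice on minimal magnesium was 12.5 TPM (the length-scaled transcript abundance) in the 106-gene branch and 4.99 TPM in the 92-gene branch, or 14.2 and 0.883 TPM without mice 4 and 20. The 92-gene branch supplied 13 of the 20 highest scores and the 106-gene branch 7. The other 3 medians lay within 0.5 log2 units of each other in 120 of the 200 members. The next highest group was Klotho-/- on high magnesium in 108 members, control in 69 and wild type on high magnesium in 23.

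The member with the highest score, MGP_C57BL6NJ_G0030245, belongs to the 106-gene branch. It stood at 3.31 CPM in mouse 20 and at 433, 553, 621, 1357 and 1414 CPM in the other Klotho-/- mice on minimal magnesium, numbers 18, 37, 35, 40 and 36. In control mice it was 198 CPM in mouse 4, 26.7 CPM in mouse 10 and 0.474 to 5.62 CPM in the other 4. It was 0.99 to 2.68 CPM in wild-type mice on high magnesium, with a median of 1.53, and 2.41 to 21.1 CPM in Klotho-/- mice on high magnesium, with a median of 4.43 and the highest value in mouse 31. Every Klotho-/- mouse on minimal magnesium other than mouse 20 was therefore above all 18 remaining mice, mouse 4 included. On high magnesium the difference between Klotho-/- and wild-type mice was 1.91 ± 1.13 on the log2 scale (estimate ± SE, n = 6 against 6, edgeR, adjusted p = 0.201). Without mouse 31 it was 1.30 (edgeR, adjusted p = 0.419) and without mice 31 and 32 it was 1.13 (adjusted p = 0.541). It passed the threshold without mice 4 and 20 (1.89, adjusted p = 0.0485) and in a model of these 2 groups alone (1.91, adjusted p = 0.00691), but not without mice 4, 20 and 38 (1.89, adjusted p = 0.0511), with a term for mouse numbers (1.87, adjusted p = 0.225) or with DESeq2 (1.90, adjusted p = 0.123).

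The member of second rank, MGP_C57BL6NJ_G0034813, was also lowest in mouse 20 among the Klotho-/- mice on minimal magnesium and highest in mouse 4 among control mice, at a lower level. It stood at 1.10 CPM in mouse 20 and at 37.7 to 74.2 CPM in the other 5 Klotho-/- mice on minimal magnesium. It was 23.2 CPM in mouse 4 and 0.334 to 1.44 CPM in the other 5 control mice. Wild-type mice on high magnesium had 0.461, 1.02 and 2.41 CPM as lowest, median and highest value, and Klotho-/- mice on high magnesium had 0.853, 1.04 and 2.81 CPM. Both groups on high magnesium thus overlapped, and the difference between them was 0.16 ± 0.90 on the log2 scale (edgeR, adjusted p = 0.912). Its sign turned with a term for mouse numbers (-0.06), without mouse 30 (-0.02) and without mouse 31 (-0.09).

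Of ranks 3 to 10, 3 and 6 belong to the 106-gene branch and the rest to the 92-gene branch. At rank 3, a member of the 106-gene branch ran from 42.6 to 183 CPM in the 5 Klotho-/- mice on minimal magnesium other than mouse 20, where it was 1.96 CPM, and it was 108 CPM in mouse 4. Another of that branch, at rank 6, ran from 146 to 409 CPM in the same 5 mice and was 9.20 CPM in mouse 20. In mouse 4 it was 128 CPM, and in the other 17 mice outside the group 4.24 to 17.5 CPM. Rank 4 belongs to the 92-gene branch, and this gene stood at 286 CPM in mouse 20, 280 CPM in mouse 36 and 466 CPM in mouse 37, but at 4.85, 13.9 and 2.11 CPM in mice 18, 35 and 40. In mouse 38 it reached 1008 CPM, and in mice 31 and 32 it was 42.2 and 67.4 CPM. Ranks 5, 7, 8, 9 and 10 belong to the same branch, and in each of them a control mouse had the highest of all 24 values, from 244 to 704 CPM. The most abundant member ranked 194, belongs to the 106-gene branch and had a median of 819 CPM in Klotho-/- mice on minimal magnesium and a highest value of 496.5 CPM among the Klotho-/- mice on high magnesium, so low scores and low levels did not go together there.

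**Figure D3:**
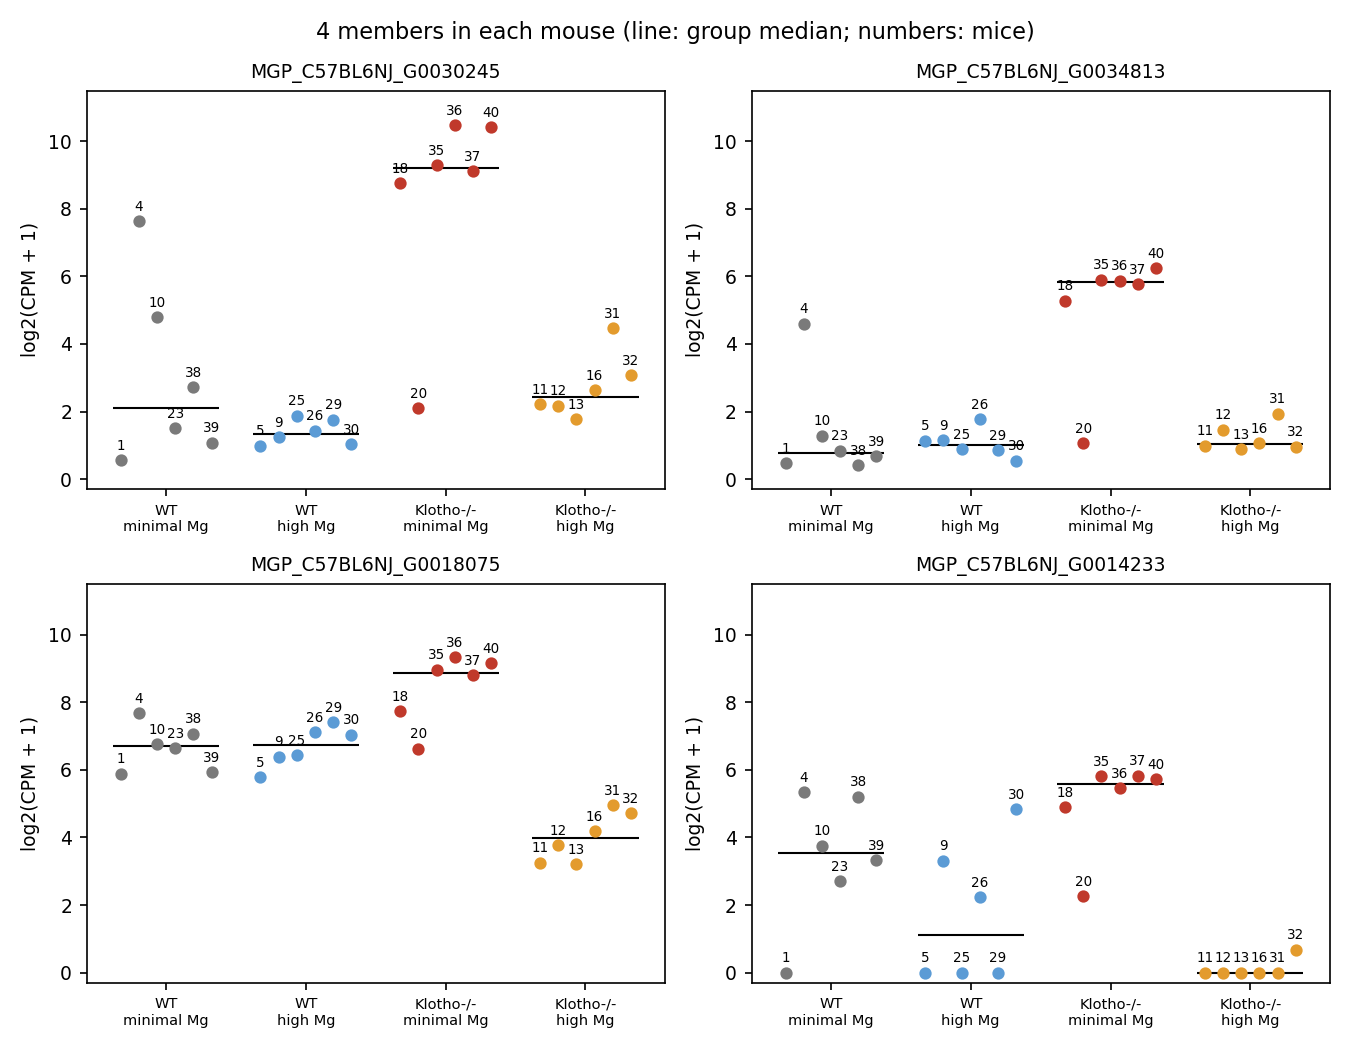
Each point is the log2(CPM + 1) of 1 of 4 members in 1 mouse, by genotype and diet, with mouse numbers beside the points and the group median as a line. In the upper panels mouse 20 lies with the low groups and mouse 4 above its own, and in the lower left panel all 6 Klotho-/- mice on high magnesium lie below all 12 wild-type mice.

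The comparisons with Klotho-/- mice on minimal magnesium entered the rule, and their counts are given without a reading. Against control mice, 16 of 198 members tested were called higher and 0 lower (edgeR, adjusted p below 0.05), where 0.699% of all 16741 genes tested were called higher and 0.125% lower, and all 16 are in the 106-gene branch. A model of these 2 groups alone called 0 of 192 (edgeR, smallest adjusted p = 0.0848) and 0% of all genes. In that model 89 members had an unadjusted p below 0.05, beside 3178 of 15774 genes. A term for mouse numbers left 7, where 0.197% of all genes were higher, and DESeq2 called 68, where 3.37% were. The count was 107 without mouse 4 (8.57% of all genes), 81 without mouse 20 (5.29%) and 110 without both (13.6%). It was 3 without any single one of mice 1, 10, 23, 36, 39 and 40 (0.0294% to 0.0648% of all genes), 7 without mouse 35 (0.13%) and 6 without mouse 37 (0.118%). Without mice 4, 20 and 38 it was 198 of 200, where 16.7% of all genes were. From minimal to high magnesium in Klotho-/- mice, 107 of 198 were called lower and 0 higher, where 13.2% of all genes were called lower. Among all genes 11.7% were called higher. The 107 were 93 members of the 106-gene branch, 13 of the 92-gene branch and 1 of the other 2. The count was 115 without mice 4 and 20 (14.6% of all genes), 136 of 200 without mice 4, 20 and 38 (16.1%) and 97 with a term for mouse numbers (10.8%). Without mice 31 and 32 the count was 181 of 200, of which 99 and 81 were in the branches, and 15.9% of all genes were called lower.

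In wild-type mice the diet contrast, which does not involve the Klotho-/- mice on minimal magnesium, gave no call. Among 198 members tested 0 were called in either direction (edgeR, smallest adjusted p = 0.311), and 0% of all 16741 genes were. At an unadjusted p below 0.05 there were 104 members (52.5%), where 7.88% of all genes passed. Some members entered this fit only through the group where they are high. When only the 2 wild-type groups were filtered and fitted, 130 members could be tested. Of these, 49 had an unadjusted p below 0.05, beside 814 of 15292 genes, and 0 were called. DESeq2 called 72 members lower and 0 higher on high magnesium, where it called 1.24% of all genes lower. The median log2 fold change was -1.68 over the members and -0.04 over all genes tested. By branch, 87 of the 92 genes and 17 of 104 tested in the other branch had an unadjusted p below 0.05. The control group of this contrast holds mouse 38 and mouse 4. Leaving out mice 4 and 20, 91 members had an unadjusted p below 0.05, beside 6.55% of all genes, and the median log2 fold change was -0.72. Without mice 4, 20 and 38, 7 of 200 members had an unadjusted p below 0.05, beside 4.85% of all genes, and the median log2 fold change was 0.01, so the lower values on high magnesium were not seen in the remaining mice.

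Klotho-/- and wild-type mice on high magnesium were compared next, a contrast without the mice of the group that was selected to be high. Some members entered the fit only through the group where they are high: when only these 2 groups were filtered and fitted, 130 of the 200 could be tested. Of 198 tested, 7 were called higher in Klotho-/- mice (3.54%) and 6 lower (3.03%), where 16.3% of all genes were called higher and 16.8% lower. The median log2 fold change was 0.85 over the members, with 157 above 0, and 0.04 over all genes tested. Since members low in both groups could hardly be called, these shares are not read against those of all genes. The median rested on mice 31 and 32: without them it was -0.06 and 8 members were called, 1 higher and 7 lower, where 16.9% of all genes were higher and 15.6% lower. Without any single one of mice 9, 13, 25, 30 and 32, 8 members were called, 2 or 3 of them higher, and without mouse 29, 6, of which 1 was higher, where between 27.5% and 30.7% of all genes were called in either direction. With a term for mouse numbers 33 were called higher and 6 lower (16.7% and 17.2% of all genes). Without mice 4 and 20, 17 were higher and 6 lower (18.1% and 18.4% of all genes), and without mice 4, 20 and 38, 54 and 6 (19.1% and 18.8%). DESeq2 called 40 higher and 6 lower (18.9% and 18.5% of all genes), and a model of these 2 groups alone called 23 higher and 5 lower of 130 (17.4% and 16.8%). The number of members called lower lay between 5 and 7 in the fits given here with both directions, and the number called higher between 1 and 54.

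The 6 members lower in Klotho-/- mice on high magnesium were below wild type on that diet, although the rule places the same genotype highest on the other diet. MGP_C57BL6NJ_G0018075, of rank 103 in the 106-gene branch, had 97.8, 471 and 646 CPM as lowest, median and highest value in Klotho-/- mice on minimal magnesium, with the lowest in mouse 20. Control mice had 58, 103 and 204 CPM, wild-type mice on high magnesium 53.9, 108 and 169 CPM, and Klotho-/- mice on high magnesium 8.25, 14.9 and 30.1 CPM. All 6 Klotho-/- mice on high magnesium were below all 12 wild-type mice, whose groups overlapped. The fold change between genotypes on high magnesium was -2.83 ± 0.40 on the log2 scale (n = 6 against 6, edgeR, adjusted p = 3.22e-05), and against control mice it was -2.76 ± 0.39 (edgeR, adjusted p = 7.12e-05). Both comparisons share the Klotho-/- mice on high magnesium. Leaving out any 1 of the 12 mice on high magnesium kept the first between -3.01 and -2.66.

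Of the other 5, 4 are in the same branch, with ranks 27, 91, 158 and 175. The member of rank 175 had medians of 204 CPM in Klotho-/- mice on minimal magnesium, 39.1 and 53.5 CPM in wild-type mice on minimal and high magnesium, and 12.1 CPM in Klotho-/- mice on high magnesium (log2 fold change between genotypes on high magnesium -2.23 ± 0.39, edgeR, adjusted p = 0.000215). Rank 91 had medians of 62.9, 8.06, 12.2 and 1.63 CPM in the same order. Rank 27 had 104, 13.0, 11.7 and 3.43 CPM, and rank 158 had 11, 2.06, 1.53 and 0.84 CPM. In these 6 the median in Klotho-/- mice on high magnesium was thus the lowest of the 4, whereas it was the next highest in 108 of the 200 members. The member of rank 158 was less than 1 log2 unit below both wild-type medians. In 183 of the 200 the median in Klotho-/- mice on high magnesium was within 1 log2 unit of both wild-type medians, in 5 it was at least 1 unit below both and in 4 at least 1 unit above both.

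The remaining one, MGP_C57BL6NJ_G0014233, belongs to neither branch and was detected in some mice of a group and not in others. It was 0 CPM in 5 Klotho-/- mice on high magnesium and 0.605 CPM in mouse 32. In Klotho-/- mice on minimal magnesium it was 3.80 CPM in mouse 20 and 28.7 to 55.8 CPM in the other 5. In control mice it was 0 CPM in mouse 1 and 5.50 to 39.2 CPM in the other 5, and in wild-type mice on high magnesium it was 0 in 3, and 3.71, 8.96 and 27.5 CPM in mice 26, 9 and 30. The fitted fold change between genotypes on high magnesium was -5.99 ± 1.61 on the log2 scale (edgeR, adjusted p = 0.00697), a size that depends on the small count the fit adds to zeros. It was -9.63 without mouse 32 (adjusted p = 0.014) and -4.64 without mouse 30 (adjusted p = 0.0305). When only the 2 groups on high magnesium were filtered and fitted, this gene could not be tested. Its adjusted p therefore rests on a fit that it entered through the groups on minimal magnesium. Its only transcript is 399 bases long.

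The 7 members called higher in Klotho-/- mice on high magnesium have ranks 9, 29, 71, 136, 137, 165 and 168. The members of ranks 9 and 29 are in the 92-gene branch, with fold changes of 6.21 ± 2.36 and 5.01 ± 1.87 on the log2 scale (edgeR, adjusted p = 0.0468 and 0.0429). In the first of these, mice 31 and 32 had 34.0 and 59.6 CPM and the other 4 Klotho-/- mice on high magnesium 0.085 to 2.13 CPM. The other 5 are in the 106-gene branch, with fold changes of 1.42 to 2.62 and adjusted p (edgeR) of 0.0189 to 0.0484. The member of rank 165 had a median of 14.1 CPM in Klotho-/- mice on high magnesium, against 3.19 CPM in wild-type mice on that diet, 9.05 CPM in control mice and 57.1 CPM in Klotho-/- mice on minimal magnesium.

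Against control mice, Klotho-/- mice on high magnesium had 14 of 198 members called lower (7.07%) and 0 higher (edgeR), where 13.2% of all genes were called lower and 12% higher. Of the 14, 9 are in the 106-gene branch, 4 in the 92-gene branch and 1 is MGP_C57BL6NJ_G0014233. All 6 members that were lower between genotypes on high magnesium are among them. The median log2 fold change was -1.33 over the members and -0.05 over all genes. The count was 8, all lower, without any single one of mice 11, 13 and 16 (9.88% to 12.6% of all genes lower), and 14 lower again with a term for mouse numbers (15.1% of all genes). When mice 4 and 20 were left out, 8 were higher and 11 lower (15.6% and 16.5% of all genes). Without mice 31 and 32 it was 69, all lower, where 12.2% of all genes were lower. Without mice 4, 20 and 38 it was 29, of which 19 were higher and 10 lower (14.2% and 14% of all genes). The 106-gene branch had 9 lower calls in this fit as in the main one, and 6 higher. The 92-gene branch went from 4 lower and 0 higher to 0 lower and 13 higher.

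**Figure D4:**
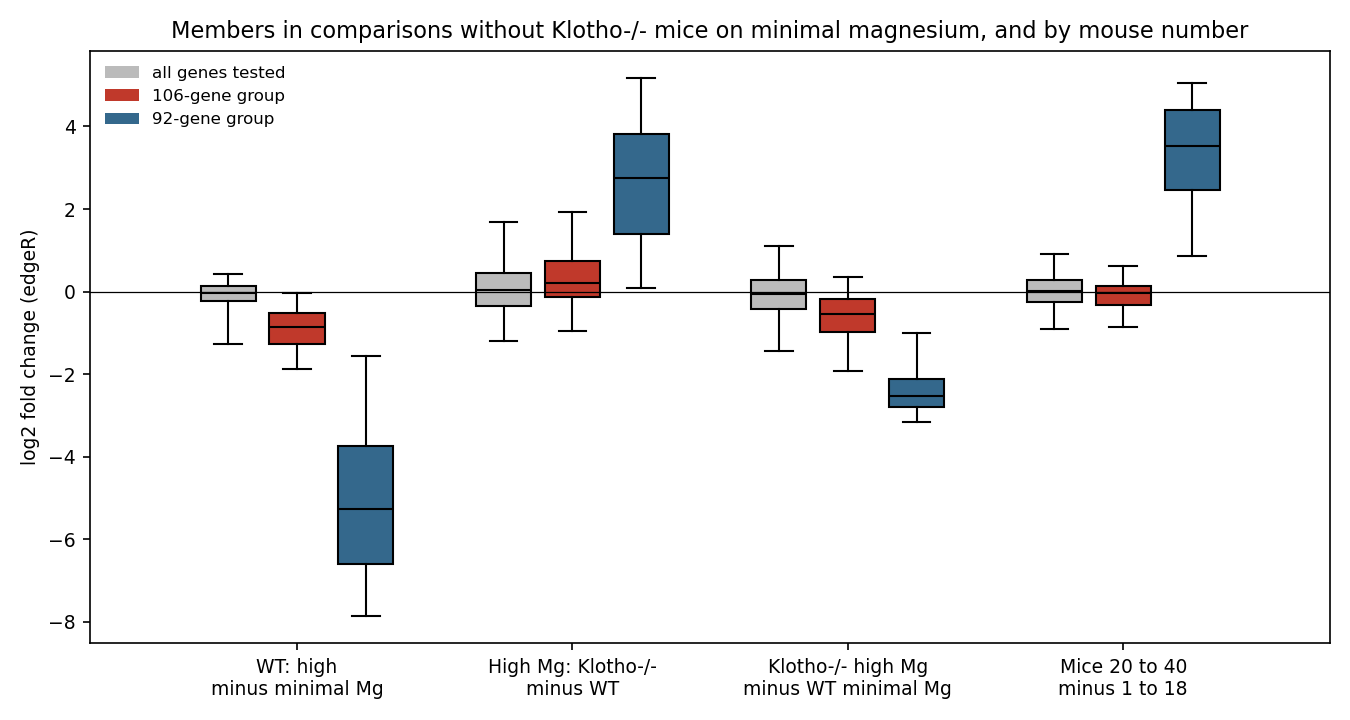
Boxes give the quartiles, the middle line the median and the whiskers the 5th and 95th percentile of the edgeR log2 fold change (vertical axis) over all genes tested, the 106-gene branch and the 92-gene branch, in 4 comparisons. The 92-gene branch has medians of -5.25 for diet in wild-type mice, 2.75 for genotype on high magnesium, -2.53 against control and 3.54 for mouse number.

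Mouse number was compared within the 4 groups by a term for numbers 20 to 40 against 1 to 18. Of 198 members, 77 were called higher in mice of the higher numbers (38.9%) and 0 lower (edgeR), where 16.4% of all genes were called higher and 14.5% lower. Of the 77, 76 are in the 92-gene branch and 1 is in the 106-gene branch, and the median log2 fold change was 3.54 in the former, -0.03 in the latter and 0.02 over all genes tested. The fit includes the Klotho-/- mice on minimal magnesium, whose values the rule used. The branches were formed on the same differences within groups. These shares and counts are therefore descriptions, and nothing is read from them. Without mice 4 and 20, 100 members were called higher (19.6% of all genes), and without mice 4, 20 and 38, 89 of 200 (17.7%). Without mice 31 and 32, which are the 2 Klotho-/- mice on high magnesium with high numbers, 9 were called higher and 1 lower, where 8.61% of all genes were higher. Within numbers 1 to 18 the only Klotho-/- mouse on minimal magnesium is mouse 18, and the score from that range alone was at least 0.5 in 97 of the 106 genes and in 34 of the 92. Mouse 18 was above all other mice of that range in 34 members, where 15.3% of all genes were. Within numbers 20 to 40 the score was at least 0.5 in 104 and 89, and no member was free of overlap (0.263% of all genes). Group and mouse number are unevenly crossed. With a term for mouse number in the model, the median log2 difference from minimal to high magnesium in Klotho-/- mice went from -2.62 to -1.60 in the 92-gene branch and from -2.32 to -2.39 in the 106-gene branch.

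The set of 200 itself depended on single mice. Without mouse 20, 128 of the members were again among the 200 highest scores, and these were all 106 of the larger branch, 21 of the second and 1 of the other 2. Without mouse 36 or 37 the same pattern was seen, with 103 and 99 of the larger branch and 32 and 19 of the second. Without mouse 18, 35 or 40 the reverse was seen, with 40, 33 and 31 of the larger branch and 81, 80 and 79 of the second. Mice 36 and 37 were high in both branches, and leaving out either removed mostly members of the 92-gene branch. With all mice the median scores of the 106 and the 92 were 2.10 and 2.29. Without mouse 20, 36 or 37 that of the 92 fell to 1.03. Without mouse 18, 35 or 40 it rose to 3.68, and that of the 106 was 2.26, 2.03 and 2.04. The 106-gene branch thus lost places among the 200 although its median score changed little. Without mice 4 and 20, 104 and 22 were kept, and without mice 31 and 32, 82 and 83. A score of at least 0.5 held for all 106 under each of these, and for 84 to 92 of the 92.

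**Figure D5:**
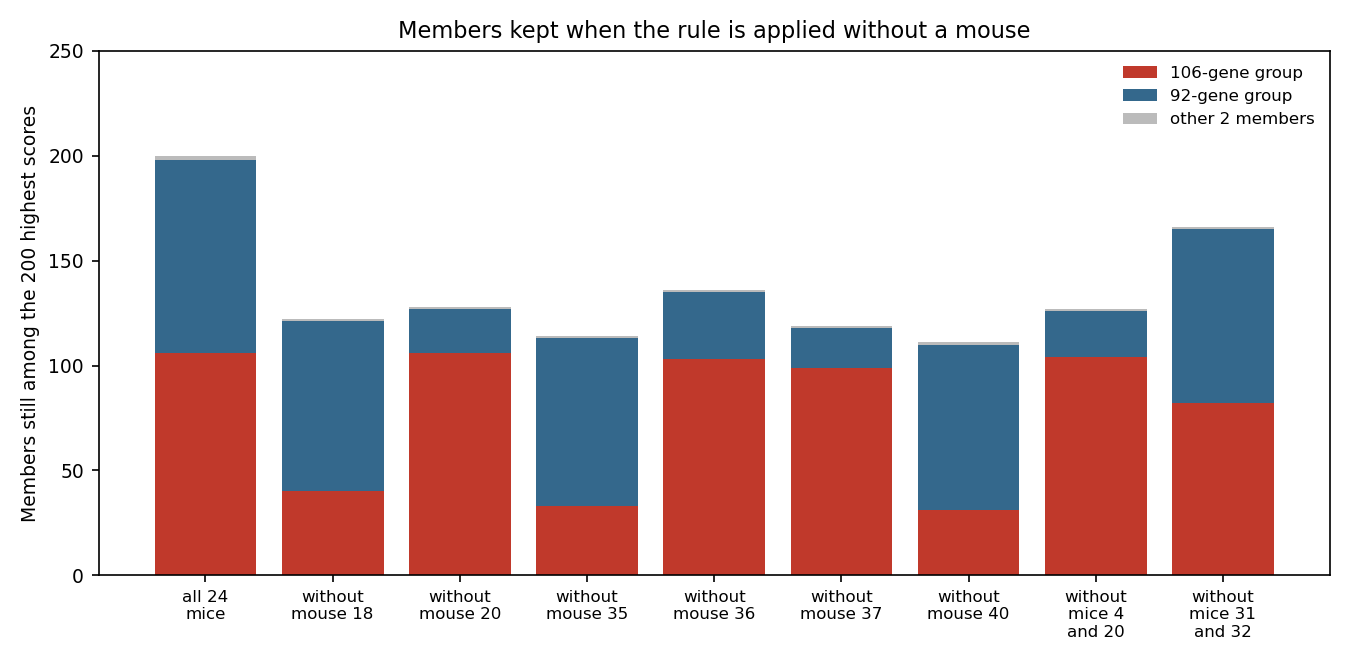
Bars give how many of the 200 members are again among the 200 highest scores (vertical axis, from 0) when the rule is applied without the mice named below, by branch. Without mouse 18, 35 or 40 the 106-gene branch shrinks to between 31 and 40, and without mouse 20, 36 or 37 the 92-gene branch to between 19 and 32.

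The files also give the transcripts of each gene, which the rule did not use. Members had a median of 2 annotated transcripts in the 106-gene branch and 3 in the 92-gene branch, and 3 over all genes tested. A single transcript was annotated for 29 and 29 members, and for 31.2% of all genes tested. The median TPM-weighted length was 1652 bases in the 106-gene branch and 2500 bases in the 92-gene branch, and 1826 bases over all genes. Of 140 members with several transcripts and at least 20 counts, 131 had the same leading transcript in Klotho-/- mice on minimal magnesium as in the other mice (93.6%), and 93.6% of such genes did overall. No test was made of these differences.

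Many genes outside the set followed the same mice. Of 16741 genes tested, 187 had a correlation of at least 0.9 with the mean within-group profile of the 106-gene branch, and 121 of these are not members. For the 92-gene branch the numbers were 407 and 330. Without mice 4 and 20 the numbers were 18 and 6 for the 106-gene branch and 472 and 393 for the 92-gene branch, so the first count rested on these 2 mice. Over the 24 mice the 187 and 407 genes were 1.12% and 2.43% of all genes tested. Each profile was then shared by more genes outside the set than inside it, by number only. Inside, 66 of the 106 and 77 of the 92 reached that correlation, and these members enter the mean profile themselves. Without mice 4 and 20 that order by number held for the 92-gene branch (79 inside) but not for the 106-gene branch (12 inside). These correlations are over 24 libraries that the genes share and are a description.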

How the data were processed

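RNA of the thoracic aorta was sequenced from 24 mice, 6 per genotype and diet, and grouped by the genotype and diet given in the labels. FastQC and Salmon, with build mm10, are named by the submitters' processing notes; versions are not given in the sources used here. Per the file headers, the authors deposited for each of 102919 transcripts an estimated count of reads, a TPM value (abundance over effective length, scaled to a fixed total) and a length in bases. Salmon splits reads between similar transcripts by model, so a gene with a close copy has an uncertain count. The labels state that RNA was not treated with DNase.

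Estimated counts were summed per gene, and CPM was taken over the file total. Levels are CPM unless named TPM. For tests, gene sums were rounded, which changed a library total by at most 0.0017%. The 16741 genes passing filterByExpr, 198 of the 200 members among them, were scaled by TMM and fitted in edgeR 4.0.16 (R 4.3.3, limma 3.58.1) with a robust quasi-likelihood model of 4 group means. P-values were adjusted by Benjamini-Hochberg over all genes tested and a gene was called below 0.05. DESeq2 1.42.0 was an alternative. The standard error is the log2 fold change over the root of F. Libraries held 9947455 to 18926802 counts, so 3 counts, the limit that a count of 0 allows, equal 0.159 to 0.302 CPM, for counting error only. Before use the fit was tried on simulated counts, with changes set only in Klotho-/- mice on high magnesium. The simulated counts held no outlying mice and no effect of mouse number, so that trial does not bear on either. Mice are separate animals by their labels.

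The members and lists were chosen with earlier results of these data known. Mouse numbers are unique, so they pair no samples. Alternatives were other scalings, pseudocounts of 0.25 and 4, means, TPM, other filters, a term for mouse numbers, a fit of the 2 groups alone and leaving out mice; leaving out mice 4, 20 and 38, and mice 31 and 32, was added after seeing the data, as were spread, levels and correlations without mice 4 and 20. Identifiers are printed for the 2 members of highest score, whose mean reached 1 CPM in Klotho-/- mice on minimal magnesium, and for the 2 with the most negative change between genotypes on high magnesium among those called. Other members singled out by rank were chosen after their values were seen. Cell type markers and pathway lists need symbols, which the files do not pair with these identifiers, and were not used here.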

Additional observations from a re-analysis of the deposited data

Results flagged for a closer look

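Of 40 sets of 6 mice looked at, 8 had a highest mouse whose distance to the next, as a share of the range, exceeded Dixon's critical value. That value gives about 1 in 20 for independent normal values. The sets here reuse the same mice and related quantities, so the 8 are not read against that rate. Among control mice, mouse 4 had a median log2(CPM + 1) of 4.275 over the 106-gene branch, where the other 5 had 1.43 to 2.383, and that branch took 0.58% of its library, against 0.077% to 0.154%. In the same mouse MGP_C57BL6NJ_G0030245 stood at 197.568 CPM, against 0.474 to 26.65 CPM, and MGP_C57BL6NJ_G0034813 at 23.218 CPM, against 0.334 to 1.437 CPM. Mouse 38, also a control, had 1.193% of its library in the 92-gene branch, against 0.008% to 0.094%.

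Among Klotho-/- mice on high magnesium, mouse 31 had 21.145 CPM of MGP_C57BL6NJ_G0030245, where the others had 2.409 to 7.415 CPM. For MGP_C57BL6NJ_G0014233, mouse 32 of that group had 0.605 CPM where the other 5 had 0, and mouse 30 among wild-type mice on high magnesium had 27.482 CPM, where the others had 0 to 8.955 CPM. Why these mice stand apart was not tested.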

How the results depend on the processing

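Of 219 values under another setting, 164 kept their direction, side of the threshold or size, 50 moved, 2 passed the threshold and 3 changed sign; the cause was not tested. Of the 200 members, 107 were again chosen from summed TPM, 127 without mice 4 and 20, 128 without mice 4, 20 and 38, and 111 to 136 without 1 of the Klotho-/- mice on minimal magnesium. For diet in wild-type mice DESeq2 called 72 members (1.28% of all genes) where edgeR called 0, also without any 1 mouse.

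For Klotho-/- against wild type on high magnesium, 13 calls (33.1% of all genes) became 7 with no filter (16.2%). They were 39 with a term for mouse numbers (33.9%), 28 in a model of the groups compared (34.2%) and 46 with DESeq2 (37.4%). The calls were 23 without mice 4 and 20 (36.5%), 60 without mice 4, 20 and 38 (37.9%) and 8 without mice 31 and 32 (32.5%). Without 1 mouse they were 6 to 15 (27.5% to 33.8%). For Klotho-/- mice on high magnesium against control, 14 calls (25.2% of all genes) became 9 with no filter (11.2%). They were 5 in a model of the groups compared (15.5%) and 31 with DESeq2 (29.8%). The calls were 29 without mice 4, 20 and 38 (28.2%), 69 without mice 31 and 32 (24%) and 8 to 17 without 1 mouse (19.9% to 30.6%). For Klotho-/- against wild type on minimal magnesium, 16 calls (0.824% of all genes) became 7 with a term for mouse numbers (0.221%). They were 0 in a model of the groups compared (0%) and 68 with DESeq2 (4.99%). The calls were 110 without mice 4 and 20 (24.1%) and 198 without mice 4, 20 and 38 (28.7%). Without 1 mouse they were 3 to 107 (0.0294% to 12.8%). For diet in Klotho-/- mice, 107 (24.9% of all genes) became 181 without mice 31 and 32 (32.8%). Without 1 mouse the calls were 88 to 115 (17.8% to 30.1%). For mouse number, 77 (30.9% of all genes) became 10 without mice 31 and 32 (16.6%). Members free of overlap, 0 with all mice (0.0478% of all genes), were 85 without mice 4 and 20 (3.49%). They were 92 without mice 4, 20 and 38 (4.01%). In mouse numbers 1 to 18 alone, which hold 1 Klotho-/- mouse on minimal magnesium, they were 34 of 200, beside 15.3% of all genes.

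The change of MGP_C57BL6NJ_G0034813 between genotypes on high magnesium turned from 0.16 to -0.06 with a term for mouse numbers and ran from -0.09 to 0.504 without 1 mouse. No paired analysis was possible because each mouse number occurs once.

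Members below 1 CPM in 3 groups rest on few counts, and their log2(CPM + 1) understates fold changes. Names, sequences and roles of members need a table of these strain identifiers.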

Other observations

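A member of rank 73 stood outside both branches. It was present in 9 mice, numbers 1, 9, 11, 16, 20, 23, 25, 36 and 37, at 28.5 to 48.2 CPM with a median of 40.6 CPM, and stood at 0 to 0.33 CPM in the other 15, so that no mouse lay between. The 9 were 2 control mice, 2 wild-type mice on high magnesium, 3 Klotho-/- mice on minimal magnesium and 2 on high magnesium. Its median in the Klotho-/- minimal group, 19.8 CPM, thus lay between 3 mice that had it and 3 that did not. No other gene tested had a correlation of 0.9 or above with it, or of -0.9 or below, over the 24 mice (0 and 0 genes). This member was chosen after its values were seen.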
